A study of Drosophila melanogaster with 8 samples.

Results

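The proteasome genes of Drosophila melanogaster were taken as every gene whose symbol begins with Prosalpha, Prosbeta, Rpn or Rpt followed by a number. Of 48 such genes in the reference gene table, 40 were read by a probe set annotated to them alone, out of 11982 genes so measured, and each by exactly 1 probe set. They comprised 26 general subunits and 14 paralogs, which carry a T or an R after the number. Prosalpha1 and Prosalpha1R share a probe set that was kept apart, and Prosbeta1, Rpn9, Rpn10, Rpt1, Rpt6 and Rpt6R were not analysed here.

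The proteasome is the machine that degrades proteins tagged with ubiquitin in the cytoplasm and nucleus. Its core particle is a barrel of alpha and beta rings, with the proteolytic sites in the beta rings, and its regulatory particle, made of Rpt ATPases and Rpn non-ATPase subunits, recognises, deubiquitinates, unfolds and threads in the substrate. In the fly, several subunits have duplicated copies that are known mainly from the testis, and Prosalpha6T is required there for normal sperm formation. The ovary loads proteasomes into the egg as part of its maternal store.

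Whole-ovary RNA of virgin females was hybridized to Affymetrix Drosophila 2.0 arrays, 1 array for each sample of about 100 ovary pairs, 8 arrays in all. The 4 arrays labelled null came from females without functional ote, which encodes the nuclear lamina protein Otefin (labels otefinPk, Chk2P30 / otefinG and otefinPk, Chk2P6 / otefinG), and the 4 labelled het from siblings with the CyO balancer and its wild-type ote in place of otefinG. Every sample thus carried 1 mutant copy of chk2, a DNA damage response kinase gene, on the chromosome with the mutant ote: P30 in replicates 1 and 2 of each label, and P6 in replicates 3 and 4. The methods place ote B279G, and not otePk, on the P30 chromosome, and say that the females were 1 day old, whereas the labels say 4 to 6 h after eclosion. By the methods the mutant ote allele of the het arrays thus also differs between P30 and P6. The paper calls the P30 and P6 genotypes backgrounds. Differences by chk2 allele given below cannot be told apart from other differences between these backgrounds. The ote allele B279G is an insertion and Pk is a premature stop, so that a transcript may remain. The pairs of same-genotype samples are called biological replicates in the methods, each from pooled females, and the comparison of null with het asked whether loss of Otefin altered transcription in ovaries with 1 mutant copy of chk2.

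The values are log2 signals that the authors normalized with RMA, and their log base was read from their range. Array medians lay between 5.61 and 5.72, no arrays were identical, and precision is limited by their number. Ote itself was lowest in the array labelled het 2, at 7.27 against 9.26 to 9.66 in the other het arrays and 7.48 to 8.66 in the null arrays, so this target went against its label, and results are also given without the arrays labelled het 2 and null 4. Ovary germline markers were strong on every array, with means of 6 genes between 10.13 and 10.72. Follicle and eggshell markers (5 genes) had means between 8.51, in het 2, and 12.35, in het 3, and were higher in P6 than in P30 (means 11.79 and 9.84). Midgut markers (10 genes) ranged from 5.71 in het 2 to 9.39 in null 2 (means 6.35 in het and 7.75 in null), and larval salivary glue genes (10 genes) stood at 8.14 in het 1 and 7.83 in null 1 against 4.30 to 5.11 elsewhere. In RNA of a whole organ, fewer cells of a type and less RNA per cell cannot be told apart.

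The general subunits were among the strong signals of these ovaries and the paralogs among the weak ones. All 26 general subunits were brighter on average than 83.6% to 99.0% of the 18769 probe sets tested, with single-array values between 9.20 and 13.24. Of the 14 paralogs, 13 lay below the median of all probe sets, with every value under 6.2, and Rpt3R alone was brighter, between 7.38 and 8.19. Probe sets differ in affinity, so a signal places a probe set on the array scale and does not compare RNA amounts between genes. The mean over general subunits was 11.85 in het P30, 12.11 in het P6, 11.95 in null P30 and 12.03 in null P6 (n = 2 each), and that over paralogs 4.43, 4.34, 4.41 and 4.45. These means describe a chosen list and were not tested.

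**Figure D1:**
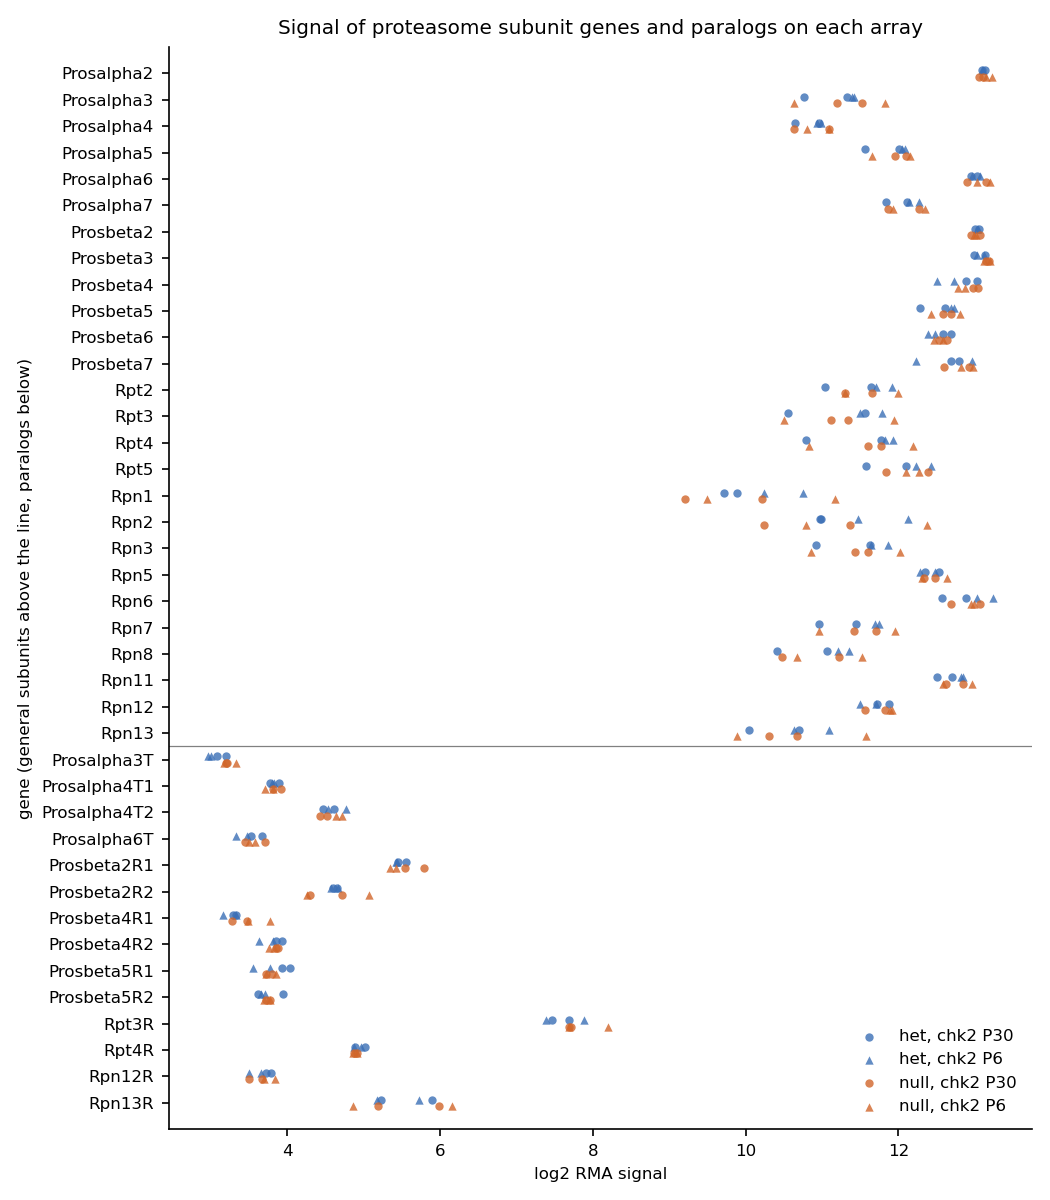
Log2 RMA signal of the 40 proteasome genes on each array, one row per gene, with blue for het, orange for null, circles for P30 and triangles for P6. The 26 general subunits lie between 9.20 and 13.24, and the paralogs lie below 6.2 except Rpt3R.

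No proteasome gene separated null from het ovaries. By limma, 0 of 40 passed a 2-fold change with an unadjusted p under 0.05, which 0.149% of all probe sets did, and 0 had an adjusted p under 0.05, where the share of all probe sets was 0%. At an unadjusted p under 0.05 alone the count was also 0 of 40, against 2.25% of all probe sets. In 0 of 40 did the null and het arrays fail to overlap, which happened in 1.82% of probe sets. Without moderation of the variances, 1 member of 40, Prosalpha3T, had an unadjusted p under 0.05. The share of all probe sets in that test was not counted, so this count has no background to be read against.

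Among the general subunits the median log2 difference, null minus het, was 0.02, with 17 higher, 9 lower and a range of -0.20 to 0.16. Over all genes it was 0.0050. In the paralogs the median was also 0.02, with 9 higher, 5 lower and a range of -0.05 to 0.23. Without the arrays labelled het 2 and null 4 the medians were 0.01 in general subunits and 0.05 in paralogs, still with 0 of 40 at a 2-fold change. The arrays averaged 11.98 ± 0.19 over general subunits in het and 11.99 ± 0.27 in null (SD, n = 4). The 95% confidence interval of the difference excluded a 2-fold change in either direction for 24 of 26 general subunits and for 14 of 14 paralogs. The exceptions were Rpn1 and Rpn2, the scaffold subunits of the base of the regulatory particle, whose arrays spread most.

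**Figure D2:**
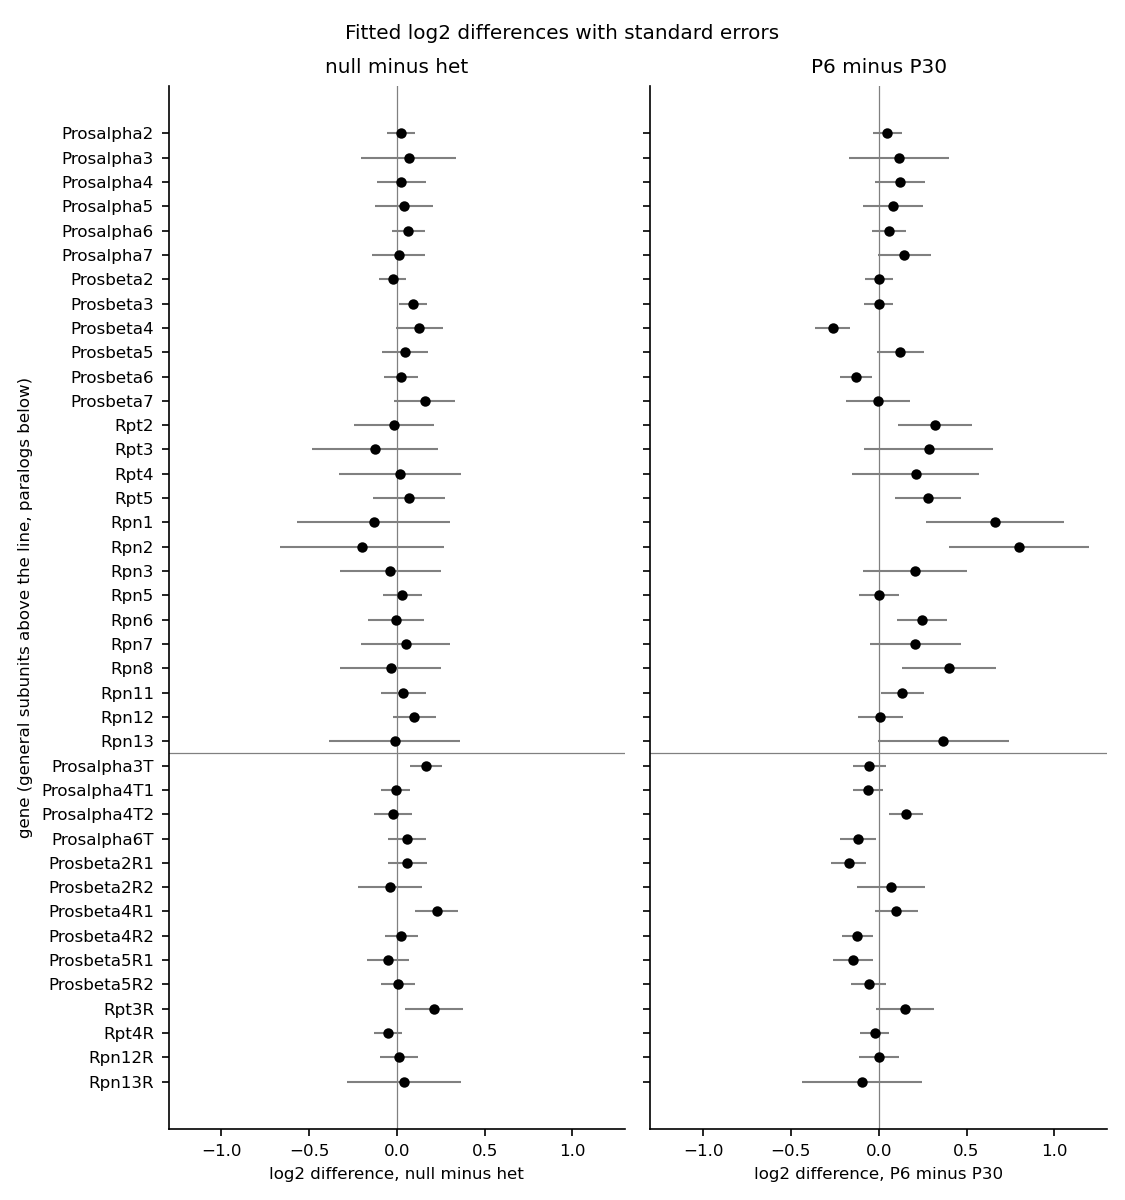
Fitted log2 differences of the 40 genes with standard errors, null minus het on the left and P6 minus P30 on the right. The differences by label lie between -0.20 and 0.23, and those by chk2 allele reach 0.80 in Rpn2 and -0.26 in Prosbeta4.

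The alpha subunits form the outer rings of the core and hold the gate to its channel. Prosalpha2 varied least among them, with log2 signals of 13.09, 13.14, 13.11 and 13.10 in het 1 to 4 and 13.11, 13.05, 13.23 and 13.15 in null 1 to 4. Its means were 13.11 ± 0.02 in het and 13.14 ± 0.07 in null (SD, n = 4), a difference of 0.02 ± 0.08 (SE). Prosalpha6 was nearly as even, with 12.95, 13.03, 12.96 and 13.07 in het 1 to 4 and 13.14, 12.90, 13.19 and 13.03 in null 1 to 4. Both stayed at 12.90 or above on every array, and the labels overlapped in both.

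The other alpha subunits had 1 or more low arrays. Prosalpha3 gave 11.33, 10.77, 11.42 and 11.40 in het 1 to 4 and 11.53, 11.20, 11.83 and 10.63 in null 1 to 4, so that the lowest value of each label lay well below the other 3. Prosalpha5 gave 12.01, 11.56, 12.05 and 12.09 in het 1 to 4 and 12.10, 11.96, 12.15 and 11.66 in null 1 to 4, with its lowest values on the same arrays, het 2 and null 4. Prosalpha4 gave 10.96, 10.65, 10.98 and 10.93 in het 1 to 4 and 11.09, 10.63, 11.09 and 10.81 in null 1 to 4. Here het 2 and null 2 were the low arrays, and in Prosalpha7, at 12.12, 11.84, 12.26 and 12.14 in het 1 to 4 and 12.27, 11.86, 12.35 and 11.93 in null 1 to 4, het 2, null 2 and null 4 were. The difference by label lay between 0.01 and 0.07 in the 6 alpha subunits. The probe set shared by Prosalpha1 and Prosalpha1R ranged from 13.08 to 13.51, with a difference of 0.05 ± 0.12 (SE), and could not be split between them.

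The beta subunits form the inner rings, in which the threonine proteases of the proteasome sit. Prosbeta2, the trypsin-like catalytic subunit, was the steadiest of all 40 genes, with 13.01, 13.06, 13.03 and 13.05 in het 1 to 4 and 13.07, 12.96, 13.00 and 13.02 in null 1 to 4. Prosbeta5, the chymotrypsin-like catalytic subunit, gave 12.61, 12.29, 12.73 and 12.69 in het 1 to 4 and 12.68, 12.58, 12.80 and 12.43 in null 1 to 4, again lowest in het 2 and next lowest in null 4. Their differences by label were -0.02 ± 0.08 (SE) and 0.05 ± 0.13 (SE), both smaller than their errors. Prosbeta3, a structural subunit, had 12.99, 13.14, 13.02 and 13.12 in het 1 to 4 and 13.19, 13.14, 13.20 and 13.12 in null 1 to 4, and its difference of 0.09 ± 0.08 (SE) had the lowest p of any general subunit in both tests (limma, unadjusted p = 0.275; exact permutation test, two-sided, p = 0.0571). Its het and null arrays overlapped, and they ceased to do so once the array labelled het 2, or that labelled null 4, was left out. The smallest p that 4 arrays against 4 can give in the exact test is 0.0286.

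Prosbeta4, another structural beta subunit, was the single member that differed by chk2 allele at an unadjusted p under 0.05 in limma. Its log2 signals were 12.89, 13.03, 12.51 and 12.74 in het 1 to 4 and 12.98, 13.05, 12.78 and 12.87 in null 1 to 4. The mean was 12.99 ± 0.07 in P30 and 12.72 ± 0.15 in P6 (SD, n = 4), so that all 4 P6 arrays lay below all 4 P30 arrays, with a difference of -0.26 ± 0.10 (SE) (limma with the label as a term, p = 0.0311, adjusted p = 0.512; exact two-sided permutation p = 0.0286, the lowest possible). It did not pass the adjustment over all probe sets. With 1 array left out the difference ran from -0.30 to -0.20, and the unadjusted p stayed under 0.05 in 3 of 8 such fits, those without het 4, null 1 or null 4, and rose above it without both het 2 and null 4 (-0.25 ± 0.11, SE). It also rose above it under other scalings, with a difference of -0.20 after median centring and -0.15 after cyclic loess, and in the fit without dim probe sets. Prosbeta6 gave 12.58, 12.69, 12.39 and 12.48 in het 1 to 4 and 12.64, 12.53, 12.46 and 12.59 in null 1 to 4, a P6 minus P30 difference of -0.13 ± 0.09 (SE) with overlapping arrays. Prosbeta7 gave 12.69, 12.80, 12.23 and 12.97 in het 1 to 4 and 12.93, 12.59, 12.98 and 12.82 in null 1 to 4. Here the array labelled het 3 lay below all others, and its difference by label, 0.16 ± 0.17 (SE), was the highest of the general subunits.

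The base ATPases unfold the substrate and drive it into the core, and in all 4 that were measured het 2 was the lowest het array. Rpt4 gave 11.77, 10.79, 11.94 and 11.83 in het 1 to 4 and 11.77, 11.60, 12.19 and 10.83 in null 1 to 4. Rpt3 gave 11.57, 10.56, 11.78 and 11.50 in het 1 to 4 and 11.35, 11.12, 11.95 and 10.50 in null 1 to 4. In both, the arrays labelled het 2 and null 4 lay below the other 3 of their label. Rpt2, which in yeast helps to open the gate of the core, gave 11.64, 11.04, 11.91 and 11.71 in het 1 to 4 and 11.65, 11.30, 11.99 and 11.31 in null 1 to 4, and Rpt5 gave 12.11, 11.57, 12.23 and 12.42 in het 1 to 4 and 12.39, 11.84, 12.27 and 12.10 in null 1 to 4. In these the low arrays were het 2 and, among the null arrays, null 2 in both and null 4 in Rpt2. The differences by label were -0.02 in Rpt2, -0.12 in Rpt3, 0.02 in Rpt4 and 0.07 in Rpt5, with standard errors of 0.20 to 0.36.

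Of the non-ATPase subunits of the base, Rpn2 had the widest range of all 40 genes. Its log2 signals were 10.99, 10.98, 12.13 and 11.47 in het 1 to 4 and 11.36, 10.24, 12.38 and 10.79 in null 1 to 4. Rpn1, which in yeast docks shuttle proteins that carry ubiquitinated substrates, gave 9.88, 9.72, 10.75 and 10.25 in het 1 to 4 and 10.22, 9.20, 11.17 and 9.49 in null 1 to 4. In both genes null 3 and het 3 were the highest arrays and null 2 the lowest. Rpn13, a ubiquitin receptor that also recruits the deubiquitinase Uch-L5, gave 10.70, 10.04, 11.10 and 10.64 in het 1 to 4 and 10.67, 10.31, 11.57 and 9.88 in null 1 to 4, highest in null 3 and lowest in null 4. By label the differences were -0.20 ± 0.47 (SE), -0.13 ± 0.44 (SE) and -0.01 ± 0.37 (SE). The 95% interval for Rpn2 ran from -1.28 to 0.88, so that a 2-fold change in null was within it on the lower side.

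The lid subunits split into steady and uneven ones. Rpn11, the deubiquitinase that frees ubiquitin from the substrate before degradation, gave 12.70, 12.51, 12.82 and 12.85 in het 1 to 4 and 12.85, 12.63, 12.97 and 12.59 in null 1 to 4. Rpn5 gave 12.35, 12.53, 12.29 and 12.48 in het 1 to 4 and 12.49, 12.34, 12.31 and 12.64 in null 1 to 4, and Rpn12 ranged from 11.50 to 11.92. These 3 stayed within 0.5 log2 units over all arrays. Rpn3 gave 11.63, 10.92, 11.87 and 11.65 in het 1 to 4 and 11.60, 11.43, 12.02 and 10.86 in null 1 to 4. Rpn7 gave 11.44, 10.96, 11.69 and 11.75 in het 1 to 4 and 11.71, 11.42, 11.96 and 10.96 in null 1 to 4. Rpn8, the partner of Rpn11, gave 11.06, 10.41, 11.36 and 11.21 in het 1 to 4 and 11.23, 10.47, 11.52 and 10.68 in null 1 to 4. All 3 were highest in null 3 and were low in het 2 and null 4, and Rpn8 in null 2 as well. Rpn6, which clamps lid and core together, ranged from 12.57 in het 2 to 13.24 in het 4. The difference by label in the lid lay between -0.04 for Rpn3 and 0.10 for Rpn12.

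The general subunits varied between arrays in a way that crossed the labels. The array labelled null 3 was the highest in 19 of 26 general subunits, and the lowest was het 2, null 2 or null 4 in 20 of 26. These low arrays were picked from the same values. The array labelled het 3 was the lowest in 5, as many as null 4, though 18 of 26 lay above their own mean in het 3. The share over all genes was not counted. The array means over the 26 genes were 11.99, 11.71, 12.12 and 12.09 in het 1 to 4 and 12.11, 11.79, 12.32 and 11.75 in null 1 to 4. The base ATPases had a wider spread, with array means from 10.99 in het 2 to 12.10 in null 3. The beta subunits were nearly level, between 12.65 and 12.92, and the paralogs did not follow, with array means between 4.29 and 4.49. In the array labelled null 1, 25 of 26 general subunits lay above their own mean, and in null 2, 22 of 26 lay below.

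**Figure D3:**
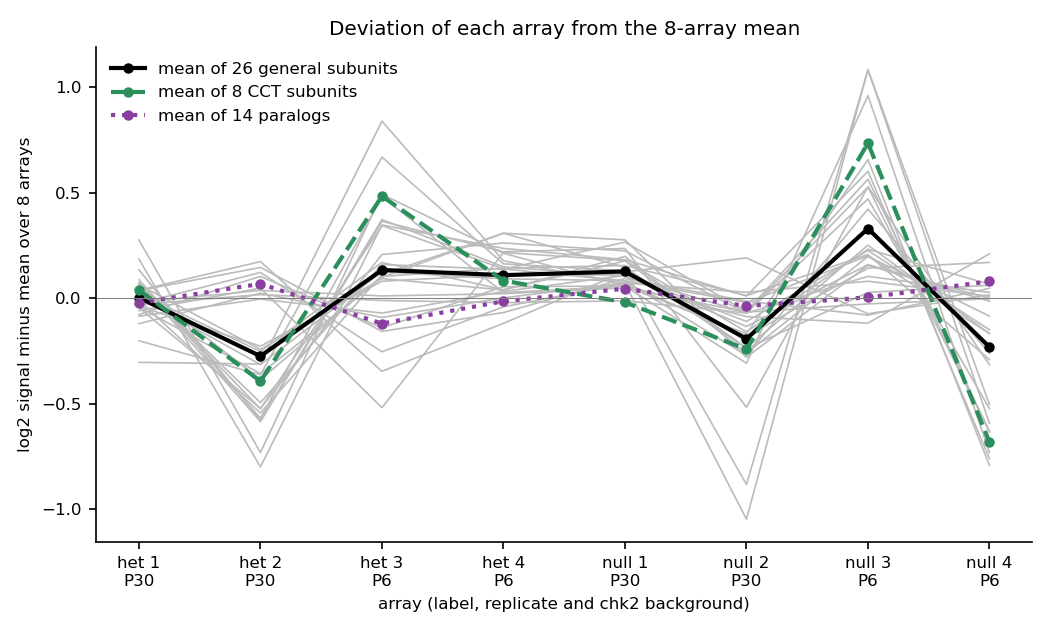
Deviation of each array from the mean over 8 arrays in log2 units; grey lines are the 26 general subunits, and thick lines the means of general subunits, 8 CCT chaperonin subunits and 14 paralogs (lines only join the values of a gene or list). General subunits and CCT are high in null 3 and low in het 2, null 2 and null 4, and the paralogs are nearly flat.

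The CCT chaperonin folds actin and tubulin and was listed as another large cytosolic complex. It was also high in null 3 and low in het 2, null 2 and null 4. Its 8 subunits averaged 12.26, 11.82, 12.70 and 12.30 in het 1 to 4 and 12.20, 11.97, 12.95 and 11.53 in null 1 to 4. The array labelled null 3 was the highest in 7 of 8, and null 4 was the lowest in 8 of 8, against 5 of 26 general subunits. In null 1, 4 of 8 CCT subunits lay above their own mean, against 25 of 26 general subunits. The 18 measured genes that serve the proteasome also averaged highest in null 3 (11.11). Their lowest means were in null 2 (10.80), het 2 (10.86) and null 4 (10.91). By gene, though, null 3 was the highest in 4 of 18 and null 4 in 6 of 18. The means of the lists of ubiquitin and of ribosomal protein genes did not share the order of the general subunits. The 9 ubiquitin and ubiquitin-conjugation genes averaged lowest in null 3 (11.93) and highest in null 4 (12.41), and 37 ribosomal protein genes averaged highest in het 2 (12.47), with 12.36 to 12.46 on the other arrays and 12.39 in null 3. Both lists hold RpL40 and RpS27A, ribosomal proteins made as fusions with ubiquitin. By gene, Ubi-p63E and Ubc2 were lowest in het 2 and next lowest in null 2. The genes ben, vih and Ubc7 were lowest in null 3, and the rest of the ubiquitin list on other arrays. The ribosomal protein genes varied little, with a median SD over arrays of 0.06, against 0.22 in the general subunits. Other values differed over the same arrays: the eIF-4a control's 3' signal exceeded its 5' signal by 2.91, 3.03, 3.30 and 2.74 log2 units in het 1 to 4 and 2.37, 2.68, 2.41 and 3.28 in null 1 to 4, and the follicle and eggshell markers averaged 11.09, 8.51, 12.35 and 11.22 and 9.92, 9.84, 11.82 and 11.78. The part of these in the array pattern was not tested.

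By chk2 allele, P6 minus P30, the general subunits had a median of 0.13, with 22 higher and 4 lower, against -0.0058 over all genes. The median was 0.19 after median centring and 0.21 after cyclic loess. With single arrays left out it ran from 0.05, without the array labelled het 2, to 0.24. The median was 0.10 in alpha, -0.0019 in beta, 0.28 in base ATPase and 0.23 in non-ATPase subunits. The highest differences were those of Rpn2, 0.80 ± 0.40 (SE), Rpn1, 0.66 ± 0.39 (SE), and Rpn8, 0.40 ± 0.27 (SE), with adjusted p = 0.53, 0.573 and 0.605 by limma. None of the 40 genes passed a 2-fold change with an unadjusted p under 0.05, where 1.64% of all probe sets did, or an adjusted p under 0.05, which 0% did. By limma, an unadjusted p under 0.05 alone was reached by 1 of 40, Prosbeta4, against 9.74% of all probe sets, and by the same gene without moderation. The share of all probe sets without moderation was not counted.

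The count at a 2-fold change rested on single arrays. Without the array labelled null 4, Rpn1 (1.00 ± 0.31, SE) and Rpn2 (1.12 ± 0.34) passed a 2-fold change with an unadjusted p under 0.05 by limma (adjusted p = 0.169 and 0.168). Without that labelled null 1, Rpn2 passed (1.03 ± 0.41, adjusted p = 0.446). Without both het 2 and null 4, Rpn1 (1.04 ± 0.38) and Rpn2 (1.19 ± 0.41) passed, each with adjusted p = 0.351. The share of all probe sets that passed in these fits was not counted, and the 1.64% above is for all 8 arrays. Follicle and eggshell markers were also higher in P6, by a median of 2.05, and their part in these differences was not tested.

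The P6 and P30 arrays failed to overlap in 3 of 40 genes, all lower in P6, where 5.75% of all probe sets did. They were Prosbeta4 and the paralogs Prosbeta2R1 and Prosbeta4R2. Each had an exact two-sided permutation p = 0.0286, which 4 arrays against 4 give whenever they do not overlap. Prosbeta2R1 gave 5.44, 5.55, 5.43 and 5.43 in het 1 to 4 and 5.54, 5.78, 5.35 and 5.42 in null 1 to 4, a difference of -0.17 ± 0.10 (SE) (limma, adjusted p = 0.57), and Prosbeta4R2 gave 3.93, 3.85, 3.63 and 3.81 in het 1 to 4 and 3.85, 3.88, 3.76 and 3.82 in null 1 to 4, a difference of -0.12 ± 0.09 (SE) (adjusted p = 0.623). Both are dim probe sets with differences of under 0.2 log2 units. Over the 14 paralogs the median by chk2 allele was -0.06, with 5 higher and 9 lower, and it was 0.0041 without the array labelled het 2.

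Within each chk2 allele the differences by label had opposite signs in 19 of 26 general subunits, and in 6092 of all 11982 genes. The 26 genes were read on the same arrays and are not separate observations. In P30 the median of the general subunits was 0.11, with 19 higher in null, and in P6 it was -0.12, with 8 higher. Over all genes these medians were -0.02 and 0.01. Rpt4, for example, differed by 0.40 within P30 and by -0.37 within P6, and Rpn7 by 0.36 and -0.26. There were 2 arrays a group, and in both genes the lowest was het 2 in P30 and null 4 in P6. The interaction of label and chk2 allele had an adjusted p under 0.05 in 0 of 40 genes (limma; 0% of all probe sets) and an unadjusted p under 0.05 in 0 of 40 (1.13% of all probe sets), the lowest being Rpn12 with 0.118.

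The spread over arrays went with the signal. Across the 26 general subunits the SD over 8 arrays and the mean signal had a Spearman correlation of -0.81, and over 2698 genes with a mean of 10 or more it was -0.45, as a description of probe sets that share the same arrays. Rpn2, Rpn1, Rpn13, Rpt3 and Rpt4 had the largest SDs, 0.70, 0.65, 0.55, 0.53 and 0.51, and Prosbeta2 the smallest, 0.04. For signals from 10 to 11 the median SD was 0.49 in 4 general subunits and 0.36 in 1290 genes. From 11 to 12 it was 0.39 in 9 subunits and 0.29 in 849 genes, and from 12 upwards 0.16 in 13 subunits and 0.18 in 559 genes. The range over arrays reached 1 log2 unit in 8 general subunits and stayed under 0.5 in 9.

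**Figure D4:**
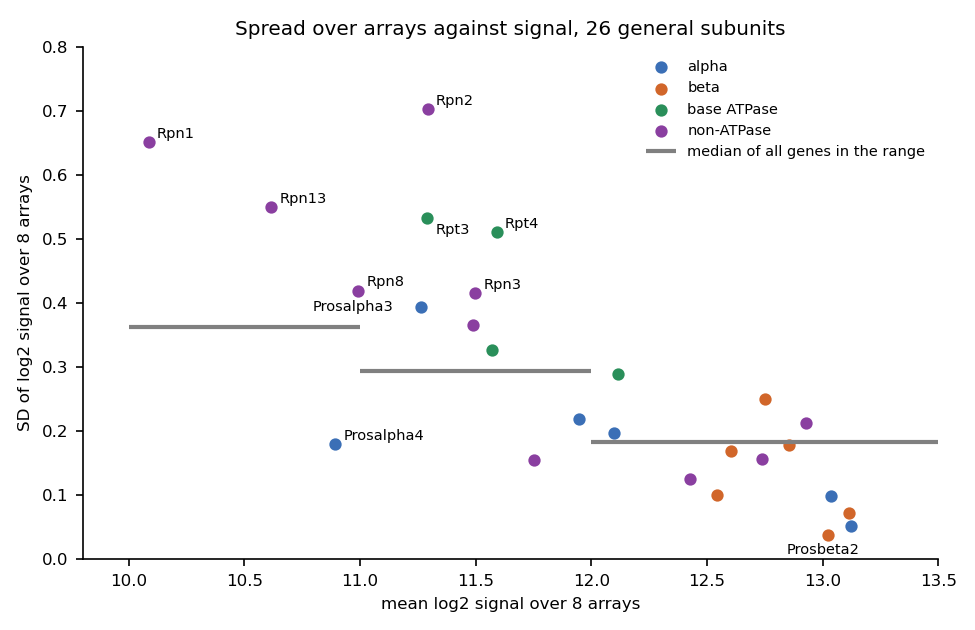
SD of the log2 signal over 8 arrays against the mean log2 signal of the 26 general subunits, coloured by role, with grey bars at the median SD of all genes in 3 ranges of signal. The SD falls from 0.70 in Rpn2 to 0.04 in Prosbeta2.

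The paralogs are the copies named for subunits of each class. No testis was among the samples, so their use in the testis was not measured. Of the alpha paralogs, Prosalpha3T gave 3.07, 3.20, 2.96 and 3.00 in het 1 to 4 and 3.19, 3.20, 3.17 and 3.33 in null 1 to 4. It was dimmer than all but 2.04% of probe sets, and its difference of 0.17 ± 0.09 (SE) had p = 0.108 by limma (exact permutation test, two-sided, p = 0.0857). Its labels overlapped through het 2, without which the difference was 0.21 and the unadjusted p fell below 0.05. Prosalpha6T, a subunit of sperm nuclei in males, gave 3.52, 3.66, 3.47 and 3.33 in het 1 to 4 and 3.71, 3.45, 3.50 and 3.57 in null 1 to 4. Prosalpha4T1 gave 3.88, 3.77, 3.83 and 3.80 in het 1 to 4 and 3.81, 3.92, 3.82 and 3.70 in null 1 to 4, and Prosalpha4T2 gave 4.47, 4.61, 4.53 and 4.76 in het 1 to 4 and 4.43, 4.51, 4.64 and 4.72 in null 1 to 4. In none of these did the labels separate, and Prosalpha4T2 had 4 P6 values of 4.53 to 4.76 against 4.43 to 4.61 in P30.

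Of the beta paralogs, Prosbeta4R1 had the lowest p by label of all 40 genes in limma's moderated fit, whereas Prosalpha3T had the lowest in the unmoderated test and Prosbeta3 in the exact test. Its signals were 3.33, 3.29, 3.33 and 3.16 in het 1 to 4 and 3.27, 3.47, 3.78 and 3.49 in null 1 to 4, a difference of 0.23 ± 0.12 (SE) (limma, unadjusted p = 0.0988; exact permutation test, two-sided, p = 0.114). The labels overlapped through null 1, and without that array the difference was 0.30, the labels no longer overlapped and the unadjusted p fell below 0.05. Prosbeta2R2 was level in het and uneven in null, with 4.66, 4.60, 4.58 and 4.66 in het 1 to 4 and 4.72, 4.30, 5.07 and 4.25 in null 1 to 4. Prosbeta5R1 ranged from 3.56 to 4.04 and Prosbeta5R2 from 3.62 to 3.95, with differences by label of -0.05 and 0.01.

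Of the regulatory-particle paralogs, Rpt3R was brighter than 64.2% of probe sets, the one paralog above their median. It gave 7.47, 7.69, 7.38 and 7.89 in het 1 to 4 and 7.71, 7.69, 7.69 and 8.19 in null 1 to 4, so that null 4 stood above the rest of its label and het 4 was the highest het array. The difference by label was 0.21 ± 0.16 (SE) (limma, unadjusted p = 0.231). Rpt4R stayed between 4.86 and 5.02, and Rpn12R between 3.50 and 3.84. Rpn13R had the widest range of the paralogs, with 5.23, 5.90, 5.18 and 5.73 in het 1 to 4 and 5.99, 5.19, 4.86 and 6.16 in null 1 to 4. Its arrays fell into high and low values within both labels, and the difference was 0.04 ± 0.32 (SE).

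Set beside their general counterparts in 14 pairs, the paralogs had the narrower range in 10. Prosalpha4, Prosbeta2, Prosbeta4 and Prosbeta5 each stand in more than 1 pair. As 13 of the paralogs had every value under 6.2 and mean signals below the median of all probe sets, the ranges do not compare regulation. Of these, Rpn13R, Prosbeta2R1 and Rpt4R were the least dim, brighter than 48.3%, 47.9% and 39.4% of probe sets. Rpt3R spanned 0.81 log2 units where Rpt3 spanned 1.45, and Prosalpha3T 0.37 where Prosalpha3 spanned 1.19. Prosbeta2R2 was the reverse, with 0.82 against 0.12 in Prosbeta2. Of 30 testis marker genes, 27 also lay below the median of all probe sets, and their array means ran from 4.35 in null 3 to 5.01 in het 2. The 3 above it were Mst84Db, Mst84Dc and mia. Mst84Dc reached 8.32 in the array labelled het 2 and 8.27 in het 4, where the paralogs averaged 4.48 and 4.39. By label the testis markers had a median of -0.18, with 6 higher and 24 lower and 1 of 30 at an unadjusted p under 0.05, betaTub85D, a share close to the 2.25% of all probe sets.

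Among genes that serve the proteasome, none passed the test by label. Of 19 listed assembly factors, activators, receptors, deubiquitinases and regulators of proteasome genes, 18 were measured, 8 higher and 10 lower in null, with a median of -0.02 and 0 at an unadjusted p under 0.05. By chk2 allele 10 were higher and 8 lower, with a median of 0.07, and 2 of 18 had an unadjusted p under 0.05, both higher in P6, a share close to the 9.74% of all probe sets. Plap, which binds ubiquitin and the segregase TER94, gave 8.56, 8.42, 9.61 and 9.07 in het 1 to 4 and 8.70, 7.83, 10.15 and 8.53 in null 1 to 4, a P6 minus P30 difference of 0.96 ± 0.37 (SE) (limma, adjusted p = 0.512). CG8858 differed by 0.83 ± 0.29 (SE) (adjusted p = 0.512). In both, null 2 was the lowest array, and the alleles overlapped through null 4. The transcription factor partner maf-S ran the other way, by -0.48 ± 0.20 (SE) (adjusted p = 0.513), and Pngl, a deglycosylating enzyme, differed by 0.25 ± 0.15 (SE) (adjusted p = 0.566).

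Of 15 listed ubiquitin and ubiquitin-conjugation genes, 9 were measured, 5 higher and 4 lower in null, with 0 at an unadjusted p under 0.05. By chk2 allele, 3 were higher and 6 lower, and 3 of 9 had an unadjusted p under 0.05, where 9.74% of all probe sets did. The polyubiquitin gene Ubi-p63E gave 12.54, 12.22, 12.73 and 12.79 in het 1 to 4 and 12.56, 12.29, 12.77 and 12.82 in null 1 to 4, higher in all 4 P6 arrays by 0.37 ± 0.11 (SE) (limma, adjusted p = 0.512). The conjugating enzyme gene Ubc2 was higher by 0.37 ± 0.14 (SE) (adjusted p = 0.512), also without overlap, and ben, another conjugating enzyme gene, was lower by a log2 difference of -0.75 ± 0.31 (SE) (adjusted p = 0.512). In Ubc7, which serves degradation at the endoplasmic reticulum, the difference was -0.30 ± 0.17 (SE) (adjusted p = 0.55).

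The ote and chk2 genes lie on chromosome 2, where null and het also differ in the balancer. The 17 members on chromosome 2 had a median log2 difference by label of 0.02, and so had the 23 on other chromosomes.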

How the data were processed

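Ovary RNA of 8 samples, 4 null and 4 het with 2 samples of each chk2 allele, was measured on 1 array each. The deposited values are log2 signals that the authors made with RMA (background correction, quantile normalization and a summary per probe set). The submitters' notes name Affymetrix Expression Console 1.4.1 for this, whereas the methods name the Transcriptome Analysis Console. The range of the values gave the log base. Quantile normalization gives all arrays 1 distribution of signals, so that differences are relative to the other probe sets. Of 18952 probe sets, 183 controls were left out and 18769 tested, with no filter on dim ones. The annotation gave 1 gene for 13647 probe sets, several for 402 and none for 4720, and names were updated through the RefSeq gene table by gene number (13544) or symbol (6), with 97 kept.

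The labels were compared by limma (3.58.1, R 4.3.3) without a covariate, the chk2 alleles with the label as a term, and the interaction in a fit with both. P-values were adjusted by Benjamini-Hochberg over all probe sets tested. Their error is the spread between separately dissected samples, which in the fit by label also holds any difference between the chk2 alleles. Calls used the study's 2-fold change with an unadjusted p under 0.05 and, separately, an adjusted p under 0.05. Single values were also compared by the exact permutation test over 70 assignments. Every proteasome gene is named, and from other lists up to 4 genes with the lowest p. The members and lists were chosen with earlier results of these data known. The alternatives were an unmoderated test (equal variances, as in the methods' one-way ANOVA), blocks, cyclic loess, median centring, dim probe sets left out, trended and robust variances, array weights, other folds, single chk2 alleles or labels, and arrays left out. The fit was tested on simulated data.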

Additional observations from a re-analysis of the deposited data

Results flagged for a closer look

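In 80 groups of 4 arrays (40 genes, 2 labels), 6 held a value whose gap to the nearest other array was a larger share of the group's range than the 95% critical value of Dixon's test, which chance exceeds in about 1 of 20 groups. The array labelled het 2 was the low one in 4 general subunits, with ratios of 0.856 in Prosalpha3, 0.839 in Prosalpha4, 0.846 in Prosalpha5 and 0.859 in Rpt4. It was the high one in the paralog Prosbeta2R1 (0.864). The array labelled null 4 was the high one in Rpt3R, with a ratio of 0.962.

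In Rpn12R both null arrays lay below both het arrays within P30 (3.67 and 3.50 against 3.73 and 3.79), and both lay above within P6 (3.70 and 3.84 against 3.50 and 3.66). The differences by label were -0.17 and 0.19, which differ by 0.36 (interaction in limma, adjusted p = 1), so the test of the difference itself missed the threshold.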

How the results depend on the processing

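The counts of 0 members at a 2-fold change or an adjusted p under 0.05, null against het, and of 0 interactions held under every alternative that could give them. No paired analysis was adopted for the main fit. The deviations of same-numbered null and het arrays correlated unevenly, at -0.0018, 0.38, 0.54 and -0.099 for replicates 1 to 4. Differently numbered arrays correlated at -0.46 to 0.18, below replicates 2 and 3, so these values do not show that pairing was absent. A fit with the replicate number as a block left the medians at 0.02 for general subunits and 0.02 for paralogs and the counts at 0. With single arrays left out, the median difference by label ran from -0.08 to 0.08 in general subunits and from -0.02 to 0.06 in paralogs, and by chk2 allele from 0.05 to 0.24 and from -0.07 to 0.0041. Of 747 differences by label of single members under 19 settings, 123 in 32 genes had the other sign, and 4 had an unadjusted p under 0.05, in Prosalpha3T and Prosbeta4R1. The count of members whose labels do not overlap, 0, became 1 with median centring and 1 with cyclic loess (Prosalpha3T in both). It was 0 to 2 with single arrays left out and 2 without the arrays labelled het 2 and null 4. In P30 alone it was 4 and in P6 alone 11, where 2 arrays face 2 and separate far more readily than 4 facing 4. The share of all probe sets was not counted at these settings, so these counts have no background to be read against. The count of members at a 2-fold change by chk2 allele, 0, became 0 to 2 with single arrays left out and 2 without both het 2 and null 4 (Rpn1 and Rpn2). Here too the share of all probe sets was not counted. With dim probe sets left out, Rpt3R alone stood for the paralogs, at 0.21 by label and 0.15 by chk2 allele. The median of the paralogs by chk2 allele was 0.0052 with median centring. Blocks and weights change no array value and give no count of overlaps. Dim probe sets limit the paralogs, of which 13 had mean signals below the median of all probe sets.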
